A study of Mus musculus with 4 samples.

Results

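The sites described here are strong autosomal peaks of DNase I accessibility that were called in both libraries of Tcf1/Lef1-deficient CD8+ T cells and in neither wild-type library. Overlapping peaks of the 4 deposited lists (1 bp or more) were joined, which gave 38986 regions, and 38110 of these lay on the 19 autosomes. A region was kept when both lists of the double knockout (DKO) and no wild-type (WT) list had a peak in it and its fold enrichment was at least 8 in each DKO list. Fold enrichment is the pileup of fragments at the peak summit over the local background, as the authors' peak caller gave it. The rule kept 897 regions, 2.35% of the autosomal regions and 16.5% of the 5429 autosomal regions called in both DKO lists and no WT list. The sites were chosen by presence, absence and fold in these same libraries, so those values are given as a description and carry no test.

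The cells were naive CD8+ T cells sorted from mouse spleen as GFP+ TCRbeta+ CD62Lhi CD44lo-med and cultured for 72 h with IL-7 and IL-15. All mice carried the hCD2-Cre transgene and the Rosa26-lsl-GFP reporter, which marks cells in which Cre has acted; the CD2 sequences that drive this Cre are active in lymphoid cells and not in CD8+ T cells alone. The WT group had unaltered Tcf1 and Lef1 alleles and the DKO group had both genes floxed, which Cre turned into Tcf1-/-Lef1-/- cells. Each group had 2 libraries. The labels give neither the age or sex of the mice nor say that each replicate is its own animal, and differences between replicates may be technical only.

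DNase I cuts DNA where nucleosomes are displaced, and short sites of frequent cutting mark promoters, enhancers and insulators held open by bound proteins. Tcf1 and Lef1 are related HMG-box proteins that bind the same short DNA motif and bend DNA. In T cells they are known to keep lineage identity, in part by holding genes of other fates silent. Sites that are open without them are therefore of interest in these cells, but a peak that is absent from a list is a site under the listing threshold, not a closed site. Regions are given by mm9 position, since neighbouring genes, promoters and sequences of mm9 were not analysed here, and the labelled cell type was not checked against marker genes.

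Replicates 1 and 2 had 17521 and 11073 peaks in WT, and 34788 and 21353 in DKO. Pileup and background in fragments were solved from each peak's fold and p. The lowest background in a library was 1.50 and 1.47 fragments in WT and 1.23 and 1.15 in DKO. It is not a measure of the number of fragments alone. Peaks on chromosome Y were listed 0 and 0 times in WT and 55 and 57 times in DKO. The labels give no sex. The Y peaks divided the libraries as genotype did. The part of a sex difference in the autosomal sites therefore cannot be told apart from that of genotype.

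Strong DKO sites usually had a WT peak as well. Of 8187 autosomal regions with a fold of at least 8 in both DKO lists, 5517 (67.4%) were called in both WT lists. A further 1533 (18.7%) were called in WT replicate 1 alone and 240 (2.93%) in WT replicate 2 alone, the shorter list. The 897 without a WT call made up 11.0%. This share fell with strength over the first 4 bands of fold. It was 17.1% where the lower of both DKO folds lay between 8 and 10 (617 of 3615 regions) and 8.22% between 10 and 12 (191 of 2324). It was 4.25% between 12 and 15 (69 of 1622) and 2.78% between 15 and 20 (15 of 540). Above a fold of 20 it was 5.81%, or 5 of 86 regions. The lower fold was under 9 at 389 of the 897 sites (43.4%) and under 10 at 617 (68.8%).

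**Figure D1:**
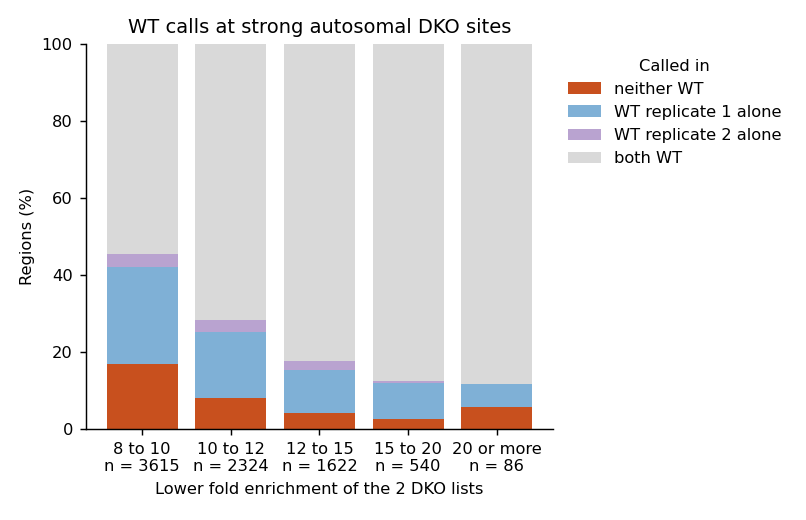
Share of strong autosomal DKO regions (%) by the WT lists in which they were called, for 5 bands of the lower fold of both DKO lists, with the number of regions under each bar. The part without a WT call shrinks from 17.1% to 2.78% over the first 4 bands and is 5.81% in the last, which rests on 5 regions.

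What a missing WT peak can hide was read from the sites that had one. At regions called in all 4 lists with a lower DKO fold of 8 to 10, the median fold was 7.17 in WT replicate 1 and 6.34 in WT replicate 2. The lowest were 4.03 and 4.02, at the floor of the lists. The medians in DKO replicates 1 and 2 at these regions, chosen by DKO fold, were 12.4 and 8.99. Over the whole lists the median fold was 6.43 and 6.13 in WT replicates 1 and 2. In DKO replicates 1 and 2 it was 8.50 and 7.24. Folds were thus higher in the DKO lists beyond the sites too, and the part of this in the missing WT calls was not tested. The smallest pileup listed was 10 fragments in WT replicate 1 and 9 in WT replicate 2. Every one of the 895 and 897 sites solved in DKO replicates 1 and 2 had at least 17. That minimum follows from the rule, since a fold of 8 over the lowest background of each DKO list already takes 17 fragments. The libraries are not scaled to each other, so these pileups are set side by side and not compared.

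The running numbers in the WT peak names gave a second view of the absence that the rule had not used. The numbers rise along each list with gaps, and a missing number may stand for a peak that was called and then taken out. Between the WT peaks that flank each site, no number was missing in either list for 655 of 897 sites (73.0%). A number was missing for 138 sites (15.4%) in WT replicate 1 and for 133 (14.8%) in WT replicate 2, with 29 in both. The flanking intervals were long, with medians of 102 and 173 kb, so a missing number need not have belonged to the site. Over the whole lists, 1530 numbers were missing beside 17521 listed peaks in WT replicate 1. In WT replicate 2, 871 were missing beside 11073 listed peaks. Missing numbers were thus more frequent around the sites than per listed peak. The length of the intervals was not matched in this. For the 4532 weaker DKO-only regions, those under a fold of 8 in at least 1 DKO list, no number was missing for 66.2%.

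The strengths of the 897 sites spread over a wide range. In DKO replicate 1 the fold ran from 8.01 to 45.6 with a median of 12.6, and in DKO replicate 2 from 8.004 to 45.0 with a median of 9.32. DKO replicate 1 had the higher fold at 785 sites (87.5%). The same held for 90.8% of the 5517 strong regions called in all 4 lists. Across the sites the log2 folds of both DKO libraries had a Pearson correlation of 0.50 and the folds a Spearman correlation of 0.40. For the strong regions called in all 4 lists these were 0.66 and 0.61. Both sets are truncated at a fold of 8 and the regions share their libraries, so the correlations are descriptions. Few of the sites were at the top of both DKO lists. By p, 124 of 897 lay in the top 10% of DKO replicate 1 and 66 in that of DKO replicate 2. In both top 10% were 39 (4.35%), against 27.0% of the strong regions called in all 4 lists. Of all autosomal regions called in both DKO lists, whatever the fold, 8.89% were in both.

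**Figure D2:**
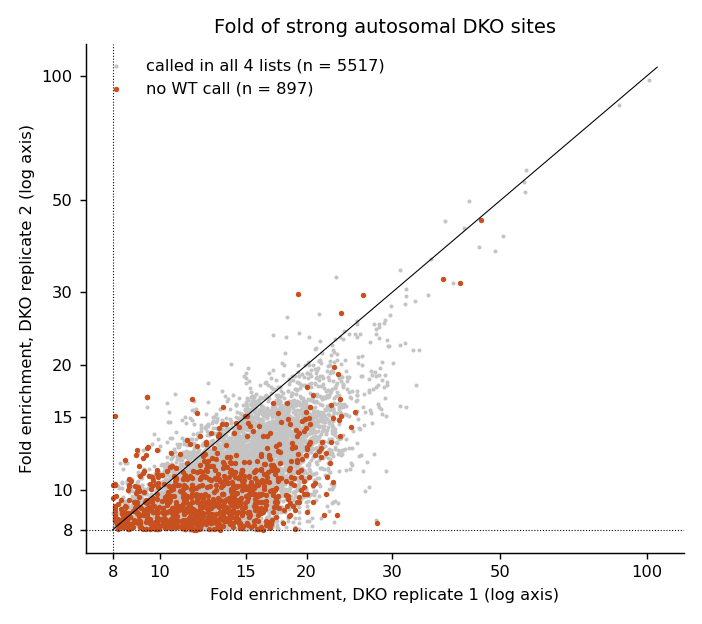
Fold enrichment in DKO replicate 1 against DKO replicate 2, both on log axes, for the 897 strong autosomal regions without a WT call and the 5517 called in all 4 lists. Dotted lines mark the minimum of 8 and the solid line equal folds. Most points lie below the line, and the regions without a WT call crowd at the lower edge with a few beyond a fold of 20 in both.

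At the threshold, the 3 weakest sites kept had lower folds of 8.0038, 8.0038 and 8.0045, on chr1:127267503-127267723, chr6:42323390-42323484 and chr12:8647570-8647670. Their folds in DKO replicate 1 were 11.9, 16.3 and 13.3. The 3 regions just outside had 7.9986, 7.9981 and 7.9958 in DKO replicate 2 and 8.39, 9.40 and 8.85 in DKO replicate 1. They lay on chr6:134848208-134848432, chr12:13255956-13256165 and chr9:43828150-43828382. The minimum of 8 was mostly a limit on DKO replicate 2. In that list 972 of the 5429 autosomal DKO-only regions reached a fold of 8, against 2860 in DKO replicate 1.

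In 20 of the 897 sites both DKO folds reached 15, and in 5 they reached 20. The strongest, 320 bp on chr17:36621604-36621923, had folds of 45.6 and 45.0 in DKO replicates 1 and 2. Its pileup in DKO replicate 2 was 159 fragments over a background of 2.56. Its summits in both libraries lay 4 bp apart, and the nearest peaks of WT replicates 1 and 2 were 66.1 and 227 kb away. The second, on chr13:4560483-4560762, had folds of 38.2 and 32.3 and summits 1 bp apart. Its nearest WT peaks were 381 and 643 kb away. Neither of these sites had a WT peak within 50 kb, and no WT number was missing around them.

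A pair of sites on chromosome 18 followed. The region at 7323083 to 7323235 was 41.3-fold and 31.6-fold enriched in DKO replicates 1 and 2, and its neighbour at 7320124 to 7320445 was 19.2-fold and 29.7-fold enriched. They lay 2.64 kb apart and were the only 2 regions in their window of 100 kb, in which neither WT library had a call. The library with the higher fold differed between these neighbours, DKO replicate 1 at the first and DKO replicate 2 at the second.

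Another close pair lay on chromosome 14. The site at 54173594 to 54173775 had folds of 26.1 and 29.6 with pileups of 108 and 102 fragments. Its neighbour, 160 bp further on at 54173936 to 54174294, had folds of 13.7 and 12.8. The nearest peaks of WT replicates 1 and 2 were 419 and 673 kb from them. On chromosome 9, the site at 13422613 to 13422879 had folds of 22.7 and 19.8 and a neighbour at 164 bp, 13423044 to 13423157, with 11.4 and 11.6.

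Chromosome 6 held 3 of the 20. In DKO replicates 1 and 2 the site chr6:41080288-41080562 had 23.5-fold and 26.7-fold enrichment, with peaks of WT replicates 1 and 2 at 11.8 and 6.57 kb, and was 275 and 270 bp wide in the DKO lists. That at 41165884 to 41166155 had folds of 20.3 and 15.8 and was 272 bp wide in DKO replicate 1 and 88 bp in DKO replicate 2. The widest of all 897 sites lay further along the chromosome, 551 bp at 41482611 to 41483161, with folds of 9.47 and 12.6. The other of the 20 on chromosome 6, at 81873564 to 81873696, had folds of 22.5 and 16.0 and stood 729 kb from the nearest peak of either WT list.

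The remaining 11 of the 20 lay on chromosomes 5, 7, 9, 10, 11, 14 and 18, with lower folds between 15.1 and 19.02. The first was chr5:45911435-45911590, with 23.2 and 19.02. Another 3 stood on chromosome 14, at 73498655 to 73498867, at 41827048 to 41827185 and at 68552249 to 68552359. The last of these had near-equal folds, 15.10 and 15.09. On chromosome 9 lay 79850705 to 79850814 with 23.5 and 16.5, and 48548355 to 48548514 with 19.97 and 15.4. The others were chr18:60926914-60927079, chr7:4082903-4083012, chr10:12716956-12717158, chr11:50655032-50655197 and chr5:31300773-31300970.

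The sites were narrow for their strength. Their median peak width was 138 bp in DKO replicate 1 and 111 bp in DKO replicate 2. At the strong regions called in all 4 lists the medians were 285 and 249 bp. A gap was also seen at like fold. With a lower fold of 8 to 10, the medians were 137 and 111 bp without a WT call and 276 and 235 bp in all 4 lists. From 10 to 15 they were 138 and 111 bp against 290 and 256 bp, and from 15 upward 161 and 154 bp, over 20 sites, against 292 and 249 bp. Over all folds, regions called in 1 WT list lay between. With WT replicate 1 alone the medians were 184 and 148 bp, and with WT replicate 2 alone 186 and 143 bp. This did not hold from a fold of 15 upward in DKO replicate 2, where the medians were 136 bp over 55 regions with WT replicate 1 alone and 111 bp over 3 with WT replicate 2 alone, under the 154 bp of the sites.

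**Figure D3:**
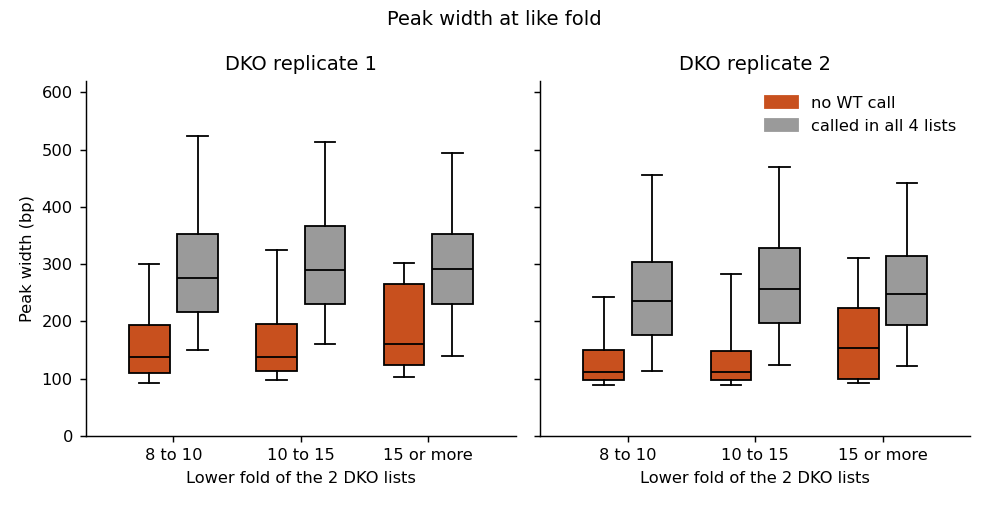
Peak width (bp) in DKO replicate 1 (left) and DKO replicate 2 (right) for 3 bands of the lower DKO fold. Boxes span the quartiles with the median as a line, and whiskers run from the 5th to the 95th percentile. In each band and library the median without a WT call, 111 to 161 bp, is below that of regions called in all 4 lists, 235 to 292 bp.

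The narrowness was also seen at like pileup, a comparison chosen after the widths were seen. Among peaks with 20 to 29 fragments in DKO replicate 2, the median width was 112 bp at 567 sites without a WT call and 226 bp at 2140 strong regions called in all 4 lists. With 30 to 39 fragments in DKO replicate 1 it was 145 bp at 340 sites and 253 bp at 879 regions. Both DKO peaks were under 150 bp at 453 of the 897 sites (50.5%), against 3.08% of the strong regions called in all 4 lists and 36.7% of the weaker DKO-only regions. The shortest peaks listed at all were 85 and 86 bp in DKO replicates 1 and 2, so many of the sites were near the shortest length listed. Wide sites were few. In 15 sites (1.67%) both DKO peaks were over 300 bp, against 25.6% of the strong regions called in all 4 lists.

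The 10 widest sites ranged from 460 to 551 bp. After the region on chromosome 6 came chr1:89504027-89504561, chr14:26241104-26241627 and chr3:121196877-121197399, with 535, 524 and 523 bp. The next were chr9:56995890-56996408 and chr12:35674933-35675445, with 519 and 513 bp. Chromosome 1 held 2 more, at 78485297 to 78485796 with 500 bp and at 167788629 to 167789109 with 481 bp. The last 2 were chr9:123832858-123833325 and chr15:25821361-25821820. The lower folds of these 10 ran from 8.14 to 13.7, so none was among the 20 strongest. The chromosome 15 site was wide in DKO replicate 2, at 460 bp, and only 140 bp in DKO replicate 1.

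Both DKO libraries placed the summit of a site at nearly the same base. The rule had not used summit position, but it joined peaks by overlap. The summits of 2 narrow overlapping peaks cannot lie far apart. At regions with a WT call, a WT peak can also join DKO peaks that do not overlap. The median distance between the DKO summits was 8 bp, and it was 20 bp or less at 797 of 897 sites (88.9%) and over 50 bp at 11 (1.23%). For the strong regions called in all 4 lists the median was 12 bp, with 68.1% within 20 bp and 17.2% over 50 bp. For the weaker DKO-only regions these were 18 bp, 55.2% and 20.1%. The sites were also the narrower peaks, and the part of width and of the required overlap in these distances was not tested. Regions called in WT replicate 1 alone, with widths nearer to the sites, had a median of 9 bp and 81.5% within 20 bp. Those called in WT replicate 2 alone had a median of 8 bp, like the sites, with 85.8% within 20 bp and 1.67% over 50 bp. Close summits were thus also found at strong regions with a call in 1 WT list. The largest distance was 149 bp, on chr13:102310382-102310682.

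**Figure D4:**
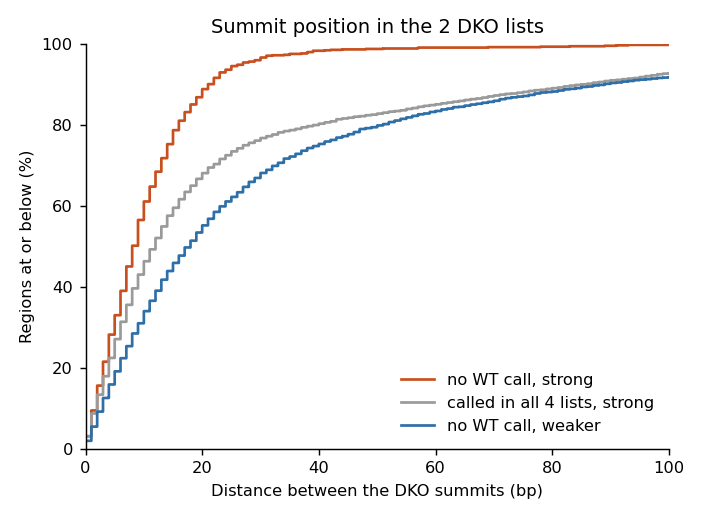
Cumulative share of regions (%) by the distance between the summits in DKO replicates 1 and 2 (bp), for the 897 sites, the 5517 strong regions called in all 4 lists and the 4532 weaker DKO-only regions. At 20 bp the curves stand at 88.9%, 68.1% and 55.2%. The axis stops at 100 bp.

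Fold differed most between the DKO libraries at a site on chr18:70663910-70664115, with 28.0 in replicate 1 and 8.30 in replicate 2, a ratio of 3.37. The next were chr8:107095049-107095192, with 23.1 and 8.70, and chr5:64431841-64432161, with 21.7 and 8.68. In the other direction, chr4:126265689-126265821 had 8.07 and 15.04, a ratio of 1.86. The sites chr2:125783738-125783875 and chr3:72993766-72993883 each had 9.42 and 16.8. Over all 897 sites the log2 ratio of replicate 1 over replicate 2 had a median of 0.40 and quartiles of 0.15 and 0.62. The median was 0.38 for the strong regions called in all 4 lists.

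The sites lay at low background, as did the weaker DKO-only regions. Their median background was 1.65 fragments in DKO replicate 1 and 1.46 in DKO replicate 2, against 2.50 and 1.89 at the strong regions called in all 4 lists and 1.78 and 1.51 at the weaker DKO-only regions. It was at the lowest level of the library for 15.8% and 15.1% of the sites, against 0.798% and 1.96% of the strong regions called in all 4 lists. Of the weaker DKO-only regions, 13.8% and 13.7% were at that level. Because fold is a ratio, a low background raises it. The median pileup was 34 and 23 fragments at the sites and 51 and 31 at the regions called in all 4 lists.

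A few sites had a high background instead. In 3 of the 895 sites solved in both DKO lists it was over 3 times the sites' median in each. All 3 were neighbours on chromosome 14. The region at 54840205 to 54840449 had backgrounds of 8.69 and 6.31 fragments and pileups of 118 and 87. That at 54842667 to 54842780 had 10.9 and 7.35 with pileups of 125 and 84. That at 54843364 to 54843663 had 11.3 and 7.75 with pileups of 129 and 106. Their nearest WT peaks were between 3.36 and 6.64 kb away. The site on chr1:167788629-167789109, not solved in DKO replicate 1, had the highest background in DKO replicate 2, 17.8 fragments under a pileup of 202.

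The background stepped down at a distance of 5 kb from other peaks, WT peaks among them. Among sites whose nearest WT peak was 4 to 5 kb away, the median background in DKO replicate 1 was 2.25 fragments. Among those at 5 to 6 kb it was 1.65. In DKO replicate 2 it went from 1.67 to 1.41. The median pileup moved little, from 37 to 35 and from 24 to 23 fragments. The number of sites per kb of distance fell from 64 in the first kb to 23 at 4 to 5 kb and then rose to 43 at 5 to 6 kb. The weaker DKO-only regions had a step at the same distance, from 2.41 to 1.72 in DKO replicate 1, with 163 and 203 regions. The step was also there by distance to the nearest union region of any kind, from 1.83 to 1.47 at the sites in DKO replicate 1. By that distance it was 2.66 to 2.32 at the strong regions called in all 4 lists. At the higher background within 5 kb, a given fold takes a higher pileup. The size of the window from which the caller took its background is not given in the sources used here.

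Most sites lay outside the 5 kb around WT peaks. The median distance to the nearest peak was 15.9 kb for WT replicate 1 and 27.2 kb for WT replicate 2. A peak of either WT list lay within 1 kb of 64 sites (7.13%), within 10 kb of 358 (39.9%) and within 100 kb of 825 (92.0%). For the weaker DKO-only regions these shares were 14.1%, 46.7% and 93.9%. The closest approach was 106 bp, at chr1:88479308-88479481, to a peak of WT replicate 1. The most remote site was that on chr3:72993766-72993883, 2367 kb from the nearest peak of both WT lists. In 169 sites (18.8%) no peak of either WT list lay within 50 kb, against 14.3% of the weaker DKO-only regions.

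**Figure D5:**
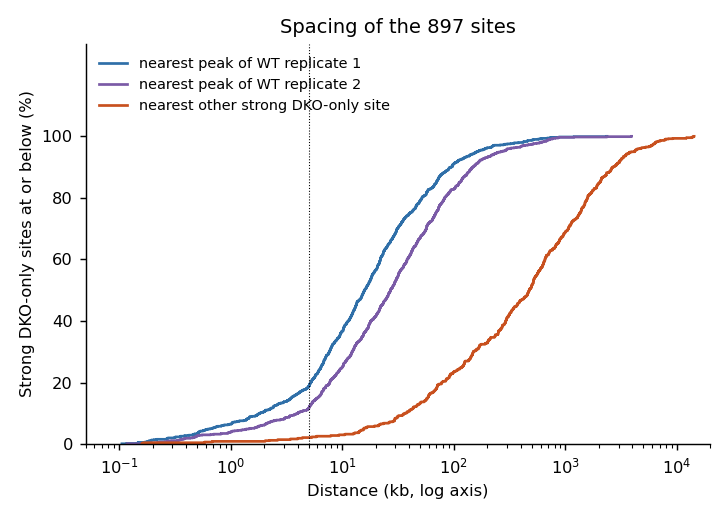
Cumulative share of the 897 sites (%) by distance (kb, log axis) to the nearest peak of WT replicate 1, to the nearest peak of WT replicate 2 and to the nearest other of the sites. The dotted line marks 5 kb, where both WT curves turn upward. The medians are 15.9, 27.2 and 476 kb.

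Most sites had no other of the 897 close by. The median distance to the nearest other was 476 kb. Another lay within 10 kb of 27 sites (3.01%) and within 100 kb of 210 (23.4%). No reference spacing was computed, so these distances do not show whether the sites lie closer together than their number alone would give. Of the 837 windows of 100 kb that held a site, 780 held 1, 54 held 2 and 3 held 3. Those with 3 lay on chr11:97500001-97600000, chr12:81200001-81300000 and chr14:54800001-54900000. Union regions of any kind, which are far more numerous, lay closer. Another union region lay within 10 kb of 564 sites (62.9%). The share was 71.1% for the weaker DKO-only regions and 57.2% for the strong regions called in all 4 lists. Each site had a median of 5 peaks of DKO replicate 1 within 50 kb, itself included, and 2 of WT replicate 1. These medians were 6 and 2 at the weaker DKO-only regions. At the strong regions called in all 4 lists they were 5 and 3, with the region's own WT peak included.

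Linking sites across gaps of at most 100 kb, a step added after the spacing was seen, gave 14 chains of 3 or more sites with 44 sites in all. The longest had 5 and spanned 71.0 kb on chr14:54772649-54843663. It held 11 union regions, of which DKO replicates 1 and 2 had calls in 10 and 6 and the WT libraries in none, though both WT lists had peaks 3.36 to 3.43 kb past its last site. Its folds ran from 8.48 to 14.2 in DKO replicate 1 and from 8.88 to 12.2 in DKO replicate 2, and 3 of its sites are those of high background above. Chains of 3 without a WT call were found at chr1:108286461-108408419, chr2:27283761-27357641, chr7:105126108-105252031, and chr7:107024982-107129050. In the other 9 chains at least 1 WT library had a call within the chain. The chromosome 7 chain from 105126108 consisted of its 3 sites and no other region, with folds from 9.42 to 22.4 and from 11.3 to 12.6 in DKO replicates 1 and 2.

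All 19 autosomes carried sites, from 22 on chromosome 19 to 88 on chromosome 11. As a share of the union regions of a chromosome they ranged from 1.83% on chromosome 19 to 3.03% on chromosome 18, beside 2.35% over all. As a share of the strong DKO regions they ranged from 8.18% on chromosome 19 to 14.2% on chromosome 14, beside 11.0% over all. These shares were not tested, since regions of 1 library pair are not replicates.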

How the data were processed

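DNase-seq peak lists of 4 mouse libraries, 2 WT and 2 DKO by their titles, were used as deposited, 1 list per library. Per the submitters' processing notes, the tools were Bowtie2 2.2.5, FastQC and MACS2 2.1.1 with build mm9. Settings and read totals, and any control, were not given in the sources used here. The authors deposited for each peak a fold (a ratio of pileup over background, each with 1 added), the −log10 p and −log10 q, and a score of 10 times the −log10 q. Positions count from 1. Pileup and background were solved from fold and a Poisson p for peaks with a −log10 p up to 250, and pileups were whole within 0.02 for 100% of them. The merging and the solution were tested on simulated data. The depth of each library is unknown, since its lowest background is not a measure of the number of fragments alone. With 2 against 2 libraries an exact permutation p cannot go below 0.33, so no test was made.

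Regions were named by rule: the 20 highest by the lower DKO fold, the 10 widest, those at the threshold, the 3 most uneven in each direction and the richest windows. The 54 windows tied at 2 sites are given as a count. Others were named after their values were seen. The sites, gene lists and motifs were chosen with earlier results of these data known. Planned neighbouring genes, gene lists, promoters and motifs were not analysed here, since no mm9 annotation or genome was used. Alternatives covered fold and q minimums, merging, WT distance, list length and each library. Python 3.11.15, pandas 2.3.3, numpy 2.4.6, scipy 1.17.1 and matplotlib 3.10.9 were used.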

Additional observations from a re-analysis of the deposited data

Results flagged for a closer look

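Chromosome Y, outside the autosomal sites described above, had peaks in both DKO lists, 55 for replicate 1 and 57 for replicate 2, and in no WT list. It is listed because it is a signal in data that the comparison did not use, above the level in the WT libraries. The labels give no sex. The Y peaks divided the libraries as genotype did, so the part of a sex difference in other results could not be told apart from that of genotype.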

How the results depend on the processing

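The number of sites, 897, stayed within 1.5 times of itself in 7 of 16 settings. Among the 7 was a −log10 q of at least 10 in each DKO list, which removed no site and so was no check of the number. The number moved to 2573, 1508, 508, 280 and 20 at fold minimums of 6, 7, 9, 10 and 15. It moved to 539 when no WT peak was allowed within 10 kb. Leaving out 1 library, which can only raise it, gave 1032 to 5754 regions, with 2435 without WT replicate 1 and 5754 without DKO replicate 2. DKO-only regions were also chosen by pileup, whatever the fold, with the median pileups of the sites themselves as minimums. Such minimums take out many of the 897 by construction, so this was no check of the number. At 34 and 23 fragments or more in DKO replicates 1 and 2, the choice gave 410. Of these, 314 were among the 897 and 96 were not. The 96 had median backgrounds of 3.97 and 2.86 fragments, and 72 (75%) of them lay within 5 kb of a WT peak, against 32.8% of the 314. Lists of equal length, cut to 11073 peaks each, gave 766, and not all of these were among the 897. Sites whose DKO peak was cut left the set, and regions whose peak of WT replicate 1 was cut could enter it. A merge distance of 500 bp gave 857. The mean of both median widths, 124.5 bp, moved by more than the spread of the DKO lists at a fold minimum of 15, to 157.5 bp, and with the width of the union region, to 154 bp. The 27 sites with another within 10 kb became 8 within 1 kb and 210 within 100 kb. The median summit distance of 8 bp stayed within 1.5 times of itself in all 4 settings tried. The fold minimums of 7 and 9, the choice by pileup and the settings for the summit distance were added after seeing the data. No paired analysis was possible because the counts of regions come from no test. Promoter and motif settings were not run. The lists limit the WT absence: no WT peak under a fold of 4 was listed, and what the depth of each library adds to this was not tested.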
